A study of Mus musculus with 6 samples.

Results

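The 10 genes described here encode platelet-derived growth factor (PDGF) and fibroblast growth factor (FGF) receptors and ligands of mouse cells: the receptors Pdgfra, Pdgfrb, Fgfr1 and Fgfr2, the PDGF ligands Pdgfa, Pdgfb and Pdgfc, and the FGF ligands Fgf2, Fgf7 and Fgf10. They were taken by symbol from a table of 30445 genes, all 10 were found there, and all 10 passed the filter on low counts along with 18613 genes in all. Messenger RNA had been sequenced from 3 kinds of cells in 2 libraries each: induced macrophages (iMac), a myeloid-like cell complex (MCC), and embryonic fibroblasts (MEF). All 6 libraries were labelled wild type, and the labels give neither age nor strain. The series title names c-Myc as the factor used to reprogram the fibroblasts to macrophages, and the sources used here do not say how the MCC and the iMac were obtained. The labels do not state whether the libraries of a group are separate cultures, so p-values measure only the spread between these libraries, which may be technical.

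PDGF ligands are secreted dimers that bind a pair of receptor tyrosine kinases on mesenchymal cells. The alpha receptor binds the A, B and C chains and the beta receptor binds mainly the B and D chains. Fibroblasts are classical responders to PDGF, while the B chain is a known product of platelets, endothelial cells and activated macrophages. FGF ligands bind FGF receptor tyrosine kinases together with heparan sulfate. Fgf7 and Fgf10 are mesenchymal ligands that act mostly on epithelial cells through a splice form of Fgfr2, and both families signal through the Ras and ERK cascade.

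RefSeq start-site sequences on GRCm38.p6 were taken for 7 of the 10 genes, which does not mean that RefSeq lacks the others. The windows below cover the 250 bases before the RefSeq start of 4 genes whose window holds no exon of the gene itself, printed 5′ to 3′ on the strand of the gene. Pdgfra (chr5:75152001-75152250, plus strand), Fgfr2 (chr7:130266809-130267058, minus strand) and Fgf10 (chr13:118714449-118714698, plus strand) are shown because their messages fell most in iMac, and Pdgfc (chr3:81036166-81036415, plus strand) because its message fell least among the 10. The windows of Fgfr2 and Fgf10 precede a start inside the gene spans given below, not the outer end of those spans.
Pdgfra: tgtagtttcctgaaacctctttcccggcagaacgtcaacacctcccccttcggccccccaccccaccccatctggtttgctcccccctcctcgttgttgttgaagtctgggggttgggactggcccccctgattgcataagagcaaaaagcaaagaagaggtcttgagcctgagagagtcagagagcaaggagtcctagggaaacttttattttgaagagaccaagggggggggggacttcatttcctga
Fgfr2: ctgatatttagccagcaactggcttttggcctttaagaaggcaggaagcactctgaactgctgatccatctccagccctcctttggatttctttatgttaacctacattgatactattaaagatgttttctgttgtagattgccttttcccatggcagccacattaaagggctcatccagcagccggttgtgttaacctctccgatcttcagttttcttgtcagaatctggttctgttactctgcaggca
Fgf10: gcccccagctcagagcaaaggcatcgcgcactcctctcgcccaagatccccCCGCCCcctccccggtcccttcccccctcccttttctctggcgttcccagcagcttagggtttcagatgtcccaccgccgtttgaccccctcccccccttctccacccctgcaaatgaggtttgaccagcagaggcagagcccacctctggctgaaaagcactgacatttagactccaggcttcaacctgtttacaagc
Pdgfc: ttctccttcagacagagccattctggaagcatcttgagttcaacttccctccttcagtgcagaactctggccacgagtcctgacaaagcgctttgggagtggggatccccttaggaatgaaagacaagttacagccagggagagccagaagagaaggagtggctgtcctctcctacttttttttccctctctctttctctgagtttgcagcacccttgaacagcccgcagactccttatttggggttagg
Capitals mark matches, on either strand, to the GC box GGGCGG. The same windows were searched on both strands for the TATA box TATAAA, the CCAAT box CCAAT, the AP-1 site TGANTCA, the E-box CACGTG and the PU.1 site GAGGAAGT. The only match in the 4 windows was 1 GC box in that of Fgf10, a motif held by 32.7% of 32817 windows of this length. The share of windows with a match was 12.4% for the TATA box, 33.8% for CCAAT, 6.75% for AP-1, 6.02% for the E-box and 2.44% for PU.1. Base composition differed among the 4, with 61.2% G and C for Fgf10, 54.4% for Pdgfra, 50.8% for Pdgfc and 44% for Fgfr2. A match is only a run of letters, and its absence says nothing about the factor.

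The libraries held 34389817 to 39174367 counts on genes. Levels are counts per 1000000 of the scaled library total (CPM), given as mean ± SD over 2 libraries. Intervals and floors given for single counts cover counting error only. Of 10 macrophage markers, 10 rose in iMac and 10 in MCC against MEF, and their summed level was 18310 to 22240 CPM in iMac, 11170 to 11440 CPM in MCC and 22.7 to 46.9 CPM in MEF. Of 10 fibroblast markers, 10 fell in iMac and 9 in MCC, and their summed level was 57.3 to 62.2 CPM in iMac, 570.5 to 2380 CPM in MCC and 15430 to 35040 CPM in MEF. The high MCC value belongs to MCC library 1 and the high MEF value to MEF library 1. Epithelial markers summed to at most 6.16 CPM and endothelial markers to at most 16.0 CPM in any library.

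The first question is which of these genes differed between iMac or MCC and the fibroblasts. In iMac against MEF, 9 of the 10 genes fell and 1, Pdgfb, rose (edgeR quasi-likelihood test, Benjamini-Hochberg adjusted p under 0.05). Over all genes tested, 32.4% were called lower and 25.1% higher in the same comparison. In MCC against MEF, 7 fell, 1 rose, again Pdgfb, and 2 were not called, while 29.6% of all genes were called lower and 23.4% higher. The median log2 fold change of the 10 genes was -6.09 in iMac and -4.17 in MCC, beside -0.06 and -0.05 over all genes tested. The comparisons share the MEF libraries, so their values are not independent of each other. In bulk RNA, fewer cells that carry a message and less message per cell cannot be told apart. Fits that leave out 1 library called 5 to 10 of the 10 genes in iMac and 4 to 10 in MCC, with 5 called without iMac library 1 or iMac library 2 and 4 called without MEF library 1.

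**Figure D1:**
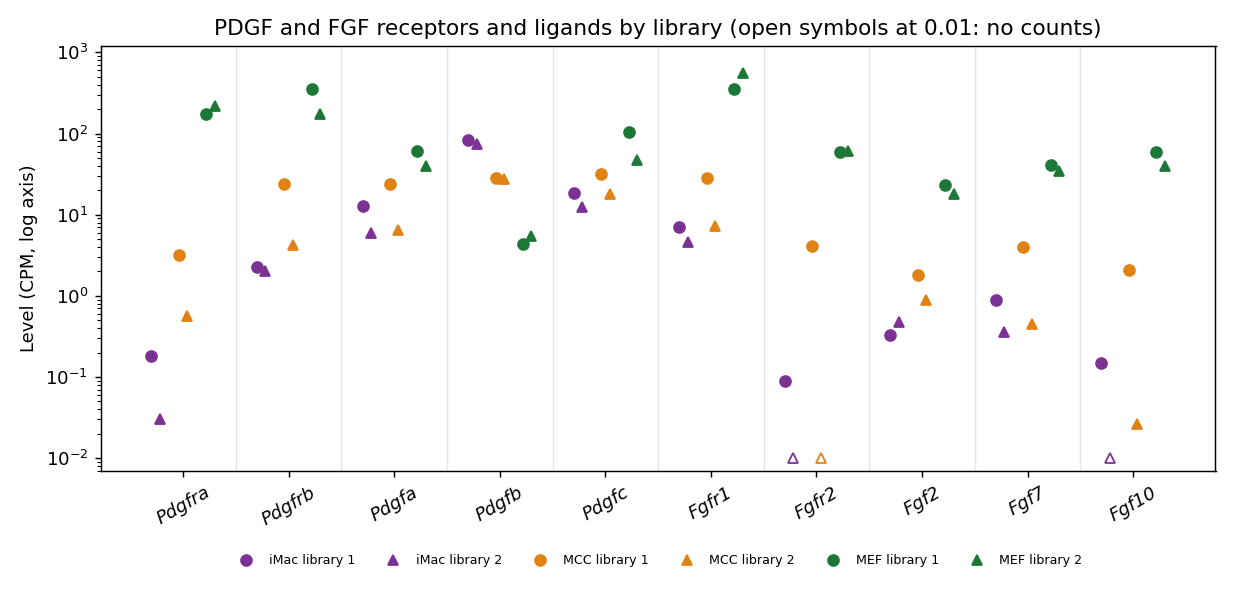
Level of each of the 10 genes (CPM, log axis) in every library, with iMac in purple, MCC in orange and MEF in green, library 1 as circles and library 2 as triangles, and open symbols for no counts. Pdgfb is the 1 gene with iMac on top, at 83.7 and 75.1 CPM, and for the other 9 both MEF libraries lie above all iMac and MCC libraries. The share of all genes with no overlap against MEF was not counted. Between iMac and MCC that share was 55.6%, in either direction.

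Both PDGF receptors were far lower in iMac and in MCC than in MEF. Pdgfra (chr5:75152292-75198215, plus strand) encodes the alpha receptor, a surface marker of mesenchymal cells. The alpha receptor message was at 0.179 and 0.0302 CPM in iMac, 3.17 and 0.562 CPM in MCC, and 173 and 216 CPM in MEF. The groups did not overlap, and the iMac libraries held 6 counts and 1 count. The log2 fold change was -10.81 ± 1.16 (SE) in iMac (adjusted p = 0.00201, edgeR) and -6.70 ± 0.90 in MCC (adjusted p = 0.00434, edgeR). It was called in each of 14 alternatives in both comparisons. The size depended on single libraries of low count: it was -12.49 without iMac library 1 and -10.04 without iMac library 2, and -8.41 without MCC library 1 and -5.81 without MCC library 2.

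Pdgfrb encodes the beta receptor, which is known for its role in pericytes and in wound fibroblasts. Its level was 2.24 and 2.05 CPM in iMac, 23.9 and 4.23 CPM in MCC, and 356 and 176 CPM in MEF. MCC library 1 stood between MCC library 2 and the fibroblasts, with no overlap of groups. The log2 fold change was -6.95 ± 1.04 in iMac (adjusted p = 0.00493, edgeR) and -4.24 ± 0.90 in MCC (adjusted p = 0.0154, edgeR). Without MEF library 1 it was -6.35 in iMac, and -3.64 in MCC with an adjusted p of 0.0542 by edgeR, above the threshold; without MCC library 1 and MCC library 2 it was -5.96 and -3.35 in MCC. Of the PDGF receptor message per kb of exon, Pdgfrb made up 97.5 ± 2.40% in iMac, 93.2 ± 0.0102% in MCC and 69.4 ± 13.5% in MEF.

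Pdgfrb lies next to Csf1r, which encodes the macrophage colony-stimulating factor receptor, a relative of the PDGF receptors in the class III kinase family. Both are on chromosome 18 and on the same strand, with 15536 bases between them. Csf1r was read at 2922 and 2698 CPM in iMac, 2005 and 2033 CPM in MCC, and 0.407 and 0.464 CPM in MEF. The neighbours thus stood in opposite order across the groups, and the log2 fold change of Csf1r was 12.64 ± 0.20 in iMac and 12.17 ± 0.19 in MCC (adjusted p = 4.18e-05 and 4.68e-05, edgeR). Among class III receptors, counted per kb of exon, Csf1r held 99.9% in each iMac library, 98.7% and 99.8% in MCC, and 0.0853% and 0.147% in MEF. Kit, the receptor for stem cell factor, had no counts in iMac, 2 and 0 counts in MCC and 89 and 365 counts in MEF. It was at least 133-fold lower in iMac (floor of 3 counts over the group), and in MCC it was lower by a ratio of 227-fold (95% counting interval 62.6 to 1883). Of the class III ligands, Csf1 fell by 4.81 ± 0.89 in iMac and by 3.31 ± 0.83 in MCC on the log2 scale (adjusted p = 0.00893 and 0.0243, edgeR). Its call in iMac was lost without iMac library 1, and its call in MCC without either MEF library (highest adjusted p = 0.0644 and 0.0859, edgeR).

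Fgfr1 (chr8:25513654-25575718, plus strand) encodes the main FGF receptor of mesenchymal cells. Reads came to 7.05 and 4.58 CPM in iMac, 28.1 and 7.36 CPM in MCC, and 352 and 549 CPM in MEF. The lowest MEF library stood above every other library by more than the spread within any group. The change on the log2 scale was -6.28 ± 0.81 in iMac (adjusted p = 0.00326, edgeR) and -4.67 ± 0.75 in MCC (adjusted p = 0.00697, edgeR), below the threshold in all 14 alternatives. In MCC, leaving out MCC library 1 gave -5.92 and MCC library 2 -3.88.

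Fgfr2 (chr7:130162451-133123350, minus strand) encodes the receptor whose splice forms serve epithelium or mesenchyme, and gene counts do not separate these forms. It had 3 and 0 counts in iMac, 157 and 0 counts in MCC, and 2196 and 2358 counts in MEF. In CPM this was 0.0896 and 0 in iMac, 4.08 and 0 in MCC, and 59.5 and 60.8 in MEF. All the MCC signal lay in MCC library 1. The ratio of MEF to iMac made it 1336-fold lower in iMac (95% counting interval 457 to 6483, adjusted p = 0.0169, edgeR). That call was lost in the fits without MEF library 1, MEF library 2, iMac library 1 or iMac library 2, where the highest adjusted p was 0.111 by edgeR. In MCC the log2 fold change of -4.88 ± 1.65 missed the threshold (95% interval -9.09 to -0.66, adjusted p = 0.0561, edgeR). It passed without MCC library 1, at -14.08, and without MCC library 2, at -3.76 (adjusted p = 0.00071 and 0.00392, edgeR).

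Summed per kb of exon, the 4 FGF receptors Fgfr1 to Fgfr4 came to 0.612 ± 0.185 CPM in iMac, 2.25 ± 2.11 CPM in MCC and 57.7 ± 17.2 CPM in MEF. Fgfr1 made up 96.3 ± 0.333% of that sum in iMac, 86.8 ± 15.3% in MCC and 78.9 ± 0.888% in MEF. Fgfr3, the receptor known from cartilage growth, had 5 and 4 counts in iMac, 129 and 5 counts in MCC and 1003 and 2184 counts in MEF. Of 13 tested other PDGF and FGF receptors and co-receptors, 10 fell and 2 rose in iMac, and 10 fell and 1 rose in MCC. Among all genes, 32.4% were called lower and 25.1% higher in iMac, and 29.6% and 23.4% in MCC. The median log2 fold change of the 13 was -5.56 in iMac, or -4.06 with genes at 0 set to their bound, and -3.74 in MCC. With 1 library left out, 5 to 10 fell in iMac (5 without iMac library 2) and 4 to 9 in MCC (4 without MEF library 2). Fgfrl1, a receptor with no kinase domain, fell by 4.06 ± 0.34 in iMac and by 3.89 ± 0.34 in MCC on the log2 scale (adjusted p = 0.00105 and 0.00146, edgeR), in every fit that left out a library. Nrp2, a co-receptor better known for semaphorins and VEGF, was at 372.5 ± 62.2 CPM in iMac, 336 ± 67.9 CPM in MCC and 145 ± 46.4 CPM in MEF. It rose by 1.36 ± 0.28 in iMac and by 1.21 ± 0.28 in MCC (adjusted p = 0.0124 and 0.0196, edgeR). Its call in iMac was lost without MEF library 2 or iMac library 1, and in MCC without MEF library 2 or MCC library 1 (highest adjusted p = 0.0715 and 0.0697, edgeR).

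**Figure D2:**
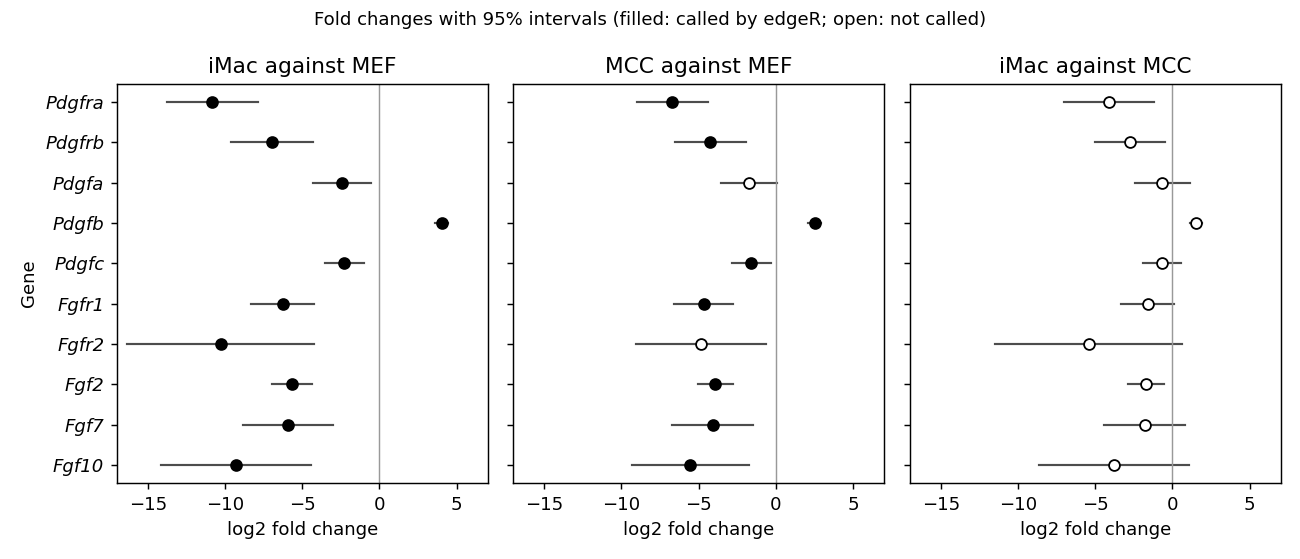
Log2 fold changes of the 10 genes with 95% intervals in iMac against MEF, MCC against MEF and iMac against MCC; filled points were called at an adjusted p under 0.05 by edgeR and open points were not. Pdgfb stands alone right of 0 in all 3 panels, and the interval of Fgfr2 is the widest of the 10 in each panel.

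The PDGF ligands went in different directions. Pdgfb (chr15:79995874-80014977, minus strand) encodes the B chain, which binds both PDGF receptors. Its message was at 83.7 and 75.1 CPM in iMac, 28.2 and 27.3 CPM in MCC, and 4.31 and 5.46 CPM in MEF. The 3 groups were stacked without overlap, and the libraries of each lay close together. The log2 fold change was 4.02 ± 0.17 in iMac, a 16.2-fold ratio (adjusted p = 0.000173, edgeR). In MCC it was 2.51 ± 0.16, a 5.67-fold ratio (adjusted p = 0.000652, edgeR). Both calls held in all 14 alternatives, with values of 3.87 to 4.18 in iMac and 2.35 to 2.74 in MCC when a library was left out.

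Pdgfb is also a known product of megakaryocytes and endothelial cells, so their markers are given beside it. Of 5 tested megakaryocyte and platelet markers, 2 rose, 1 fell and 2 were not called in each of iMac and MCC. The risers were Pf4, a platelet chemokine that some macrophages also make, and Vwf, von Willebrand factor. Pf4 averaged 275.9 ± 15.9 CPM in iMac, 180.6 ± 4.25 CPM in MCC and 0.0400 ± 0.0201 CPM in MEF. Vwf averaged 7.83 ± 0.965 CPM in iMac, 6.07 ± 0.942 CPM in MCC and 0.5002 ± 0.0941 CPM in MEF. Itga2b, the platelet integrin chain, fell by 2.39 in iMac and by 2.28 in MCC on the log2 scale (adjusted p = 0.00422 and 0.0055, edgeR). The summed endothelial list lay at 8.47 to 9.65 CPM in iMac, 8.50 to 10.3 CPM in MCC and 11.1 to 16.0 CPM in MEF. Kdr, a VEGF receptor, lay at 4.90 and 3.86 CPM in iMac, 4.76 and 5.78 CPM in MCC and 5.58 and 7.19 CPM in MEF. Of the 6 tested genes of the list, 2 rose and 3 fell in iMac, and 2 rose and 2 fell in MCC. Over all genes tested, 25.1% were called higher and 32.4% lower in iMac, and 23.4% and 29.6% in MCC. Tek, Esam and, in iMac alone, Cdh5 were the endothelial genes that fell. With 1 library left out, Tek changed by -9.28 to -5.96 in iMac and -9.24 to -6.12 in MCC on the log2 scale. Esam changed by -6.535 to -5.363 in iMac and -4.05 to -2.80 in MCC, and Cdh5 by -2.59 to -1.01 in iMac. Pecam1, an adhesion molecule that leukocytes also carry, had 3.55 and 3.50 CPM in iMac, 2.42 and 2.70 CPM in MCC and 0.434 and 0.438 CPM in MEF. It rose by 3.01 ± 0.28 in iMac and by 2.55 ± 0.28 in MCC on the log2 scale (adjusted p = 0.00142 and 0.00263, edgeR), in every fit that left out a library. Tie1, an endothelial receptor kinase, rose as well, with 21 and 14 counts in iMac, 10 and 9 counts in MCC and 0 and 1 counts in MEF (adjusted p = 0.00661 in iMac and 0.0179 in MCC, edgeR). The Tie1 call in iMac was lost without iMac library 1, and in MCC without MEF library 1, MCC library 1, MCC library 2 or iMac library 1 (highest adjusted p = 0.0509 and 0.0676, edgeR). The part of such cells in the Pdgfb level was not tested.

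Pdgfa (chr5:138976014-138997370, minus strand) encodes the A chain, which binds the alpha receptor. It was read at 12.9 and 5.97 CPM in iMac, 23.6 and 6.42 CPM in MCC, and 60.5 and 40.3 CPM in MEF. Both MEF libraries were above all the others, and MCC library 2 lay among the iMac libraries. The log2 fold change was -2.41 ± 0.73 in iMac (adjusted p = 0.0378, edgeR). That call was lost without MEF library 1, MEF library 2, iMac library 1 or iMac library 2 (highest adjusted p = 0.172, edgeR), with -3.06 without iMac library 1 and -1.95 without iMac library 2. In MCC it was -1.75 ± 0.71, which missed the threshold (95% interval -3.56 to 0.06, adjusted p = 0.0904, edgeR), and -2.96 without MCC library 1 (adjusted p = 0.016, edgeR). The opposite-strand transcript 6330403L08Rik shares 26.1% of the exonic bases of Pdgfa, and the sources used here do not give the strand setting of the counting. That transcript had 287 and 287 counts in iMac, 225 and 155 counts in MCC and 719 and 574 counts in MEF, so reads of the pair may not be told apart.

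Pdgfc (chr3:81036416-81214040, plus strand) encodes the C chain, which is secreted in a latent form and cut by proteases. It was read at 18.5 and 12.6 CPM in iMac, 31.96 and 17.8 CPM in MCC, and 103 and 47.1 CPM in MEF. The MEF libraries differed by more than 2-fold between themselves and were still the highest. Its log2 fold change was -2.27 ± 0.50 in iMac (adjusted p = 0.0146, edgeR) and -1.59 ± 0.49 in MCC (adjusted p = 0.0426, edgeR). The iMac call was lost without iMac library 1 or iMac library 2 (highest adjusted p = 0.0943, edgeR), and the MCC call without MEF library 1, MCC library 2, iMac library 1 or iMac library 2 (highest adjusted p = 0.165, edgeR). Without MEF library 1 the values were -1.59 in iMac and -0.92 in MCC.

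The makeup of the PDGF ligand message differed between the groups. Per kb of exon, Pdgfa, Pdgfb, Pdgfc and Pdgfd together came to 27.9 and 22.5 CPM in iMac, 20.8 and 12.2 CPM in MCC, and 50.3 and 30.2 CPM in MEF. Pdgfb made up 72.1% and 80.4% of that sum in iMac, 32.6% and 54.0% in MCC, and 2.06% and 4.34% in MEF. The shares did not overlap between groups, and 2 libraries against 2 are too few for an exact permutation test to reach the threshold. Without division by exonic length the mean share was 76.4% in iMac, 43.2% in MCC and 3.48% in MEF. Pdgfd, the D chain, which binds the beta receptor, had 0 and 2 counts in iMac, 22 and 4 counts in MCC and 1125 and 827 counts in MEF. Its level was lower by a ratio of 859-fold in iMac (95% counting interval 237.5 to 7100, adjusted p = 0.00247, edgeR), and it was called in every fit that left out a library.

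**Figure D3:**
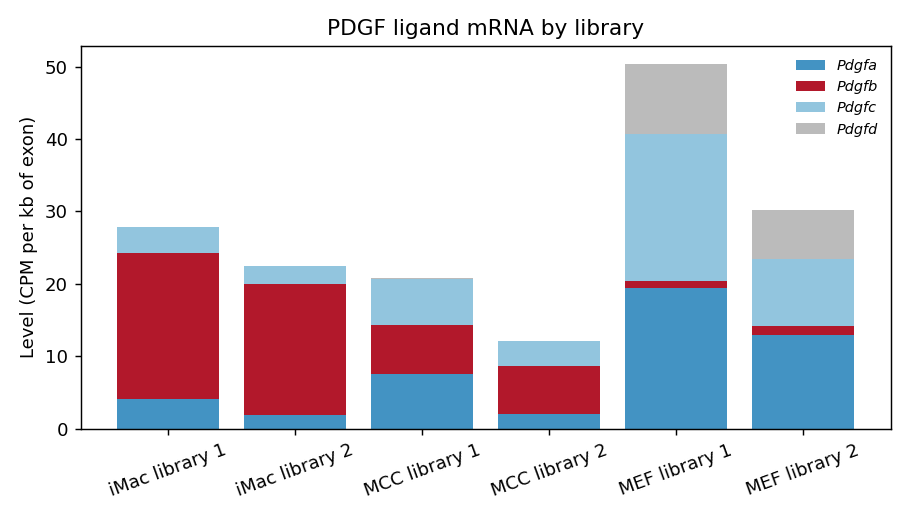
Level of the 4 PDGF ligand genes (CPM per kb of exon, stacked bars from 0) in each library, with Pdgfb in red. The red part is 18.0 to 20.1 CPM per kb in the iMac libraries, 6.56 to 6.78 in the MCC libraries and 1.04 to 1.31 in the MEF libraries.

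Of 6 genes for processing of PDGF ligands, 3 fell in iMac and 3 in MCC, and none rose in either. Over all genes tested, 32.4% were called lower in iMac and 29.6% in MCC, and 6 genes are too few to tell from these shares. Leaving out 1 library gave 1 to 4 falls in iMac (1 without iMac library 2) and 1 to 3 in MCC (1 without MEF library 1). Without MEF library 1, 1 of the 6, Plau, which encodes urokinase and was named after its values were seen, was called higher in both comparisons. Pcsk5, a proprotein convertase, had no counts in iMac, 3 and 2 counts in MCC and 561 and 430 counts in MEF. It was at least 291-fold lower in iMac, against the floor of 3 counts over the group, and its log2 fold change in MCC was -7.57 ± 0.44 (adjusted p = 0.00122, edgeR). Plat, which encodes tissue plasminogen activator, a protease that cuts the C chain, had log2 fold changes of -9.77 ± 1.86 in iMac and -5.38 ± 1.43 in MCC (adjusted p = 0.00956 and 0.0284, edgeR). Its call in iMac was lost without either iMac library, and in MCC without either MEF library or either iMac library (highest adjusted p = 0.0759 and 0.0905, edgeR). Furin, a convertase of the A and B chains, averaged 147.6 ± 0.0568 CPM in iMac, 136.4 ± 3.98 CPM in MCC and 167 ± 29.9 CPM in MEF. On the log2 scale it differed by -0.18 in iMac (95% interval -0.53 to 0.17) and -0.30 in MCC (95% interval -0.65 to 0.06), neither called.

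The FGF ligands all fell. Fgf2 (chr3:37348346-37410108, plus strand) encodes basic FGF, a broad mitogen that fibroblasts make. It was read at 0.329 and 0.482 CPM in iMac, 1.82 and 0.883 CPM in MCC, and 23.5 and 17.8 CPM in MEF. The groups were stacked without overlap. Its log2 fold change was -5.66 ± 0.50 in iMac (adjusted p = 0.0012, edgeR) and -3.93 ± 0.45 in MCC (adjusted p = 0.00284, edgeR), called in all 14 alternatives, and it was -4.53 in MCC without MCC library 1. Its exons share 13.2% of their bases with other genes, among them Nudt6 on the opposite strand. Nudt6 had 62 and 85 counts in iMac, 54 and 73 counts in MCC and 26 and 28 counts in MEF, against 11 and 16, 70 and 33, and 866 and 689 for Fgf2. In iMac the pair may not be told apart without the strand setting.

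Fgf7 (chr2:126034658-126091185, plus strand) encodes keratinocyte growth factor. Its level was 0.896 and 0.362 CPM in iMac, 3.95 and 0.455 CPM in MCC, and 40.6 and 34.9 CPM in MEF. MCC library 2 lay within the range of the iMac libraries. The log2 fold change was -5.90 ± 1.14 in iMac (adjusted p = 0.0101, edgeR), and the call was lost without either iMac library (highest adjusted p = 0.074, edgeR), with -6.67 without iMac library 1. In MCC it was -4.10 ± 1.03 (adjusted p = 0.0241, edgeR), a call lost without either MEF library or either iMac library (highest adjusted p = 0.0776, edgeR). Leaving out MCC library 1 gave -6.35, and MCC library 2 -3.13.

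Fgf10 (chr13:118669791-118792115, plus strand) encodes a mesenchymal ligand needed for lung and limb outgrowth. It had 5 and 0 counts in iMac, 80 and 1 counts in MCC, and 2155 and 1550 counts in MEF. In CPM this was 0.149 and 0 in iMac, 2.08 and 0.0268 in MCC, and 58.4 and 39.9 in MEF. As with Fgfr2, almost all the MCC signal came from MCC library 1. The log2 fold change was -9.29 ± 1.91 in iMac (adjusted p = 0.0119, edgeR) and -5.54 ± 1.47 in MCC (adjusted p = 0.0288, edgeR). The iMac call was lost without either iMac library (highest adjusted p = 0.0836, edgeR), at -13.82 without iMac library 1 and -8.32 without iMac library 2. The MCC call was lost without either MEF library or either iMac library (highest adjusted p = 0.102, edgeR), and leaving out MCC library 1 gave -10.66 and MCC library 2 -4.44.

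Of 7 tested other PDGF and FGF ligands, 4 fell and none rose in iMac, and 5 fell and none rose in MCC. Over all genes tested, 25.1% were called higher and 32.4% lower in iMac, and 23.4% and 29.6% in MCC. Fgf1, acidic FGF, was at 1.28 ± 0.285 CPM in iMac, 1.13 ± 0.0226 CPM in MCC and 18.9 ± 11.5 CPM in MEF. On the log2 scale it changed by -3.89 ± 0.53 in iMac and -4.06 ± 0.53 in MCC (adjusted p = 0.00375 and 0.0041, edgeR), called in every fit that left out a library, with -3.11 in iMac and -3.20 in MCC as the smallest falls, both without MEF library 2. Leaving out a MEF or an iMac library took the falls in iMac to 2, and leaving out a MEF library those in MCC to 2. The intracellular FGF family is not secreted and is known for binding sodium channels. Its 4 tested genes, too few to tell from the shares of all genes, had 1 rise and 2 falls in each of iMac and MCC. Without MEF library 2 there was 1 fall in each, since Fgf12 was no longer called (adjusted p = 0.054 in iMac and 0.0582 in MCC, edgeR). Fgf11 rose to 12.7 ± 0.235 CPM in iMac and 12.1 ± 0.113 CPM in MCC, against 1.77 ± 0.777 CPM in MEF. The rise on the log2 scale was 2.84 ± 0.34 in iMac and 2.77 ± 0.34 in MCC (adjusted p = 0.00273 and 0.00352, edgeR), called in every fit that left out a library, at up to 3.35 in iMac and 3.36 in MCC. Fgf14 had no counts in iMac or MCC and was at least 41.1-fold lower in iMac and at least 46.7-fold lower in MCC.

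The next question is whether the 10 genes differed between iMac and MCC. None was called by edgeR (adjusted p under 0.05), in a comparison in which 4 genes of 18613, or 0.0215%, were called. At an unadjusted p under 0.05 there were 4 of the 10, Pdgfra, Pdgfrb, Pdgfb and Fgf2, and 18.2% of all genes. DESeq2 called the same 4, and 14.7% of all genes. Limma-voom called Pdgfb alone of the 10, and 0.784% of all genes. In 5 of the 10 genes, Pdgfra, Pdgfrb, Pdgfb, Fgfr1 and Fgf2, the iMac and MCC libraries did not overlap, which held for 55.6% of all genes. Pdgfb was at 79.4 ± 6.14 CPM in iMac and 27.8 ± 0.659 CPM in MCC, with a log2 fold change of 1.52 ± 0.15 (95% interval 1.13 to 1.90, adjusted p = 0.0756, edgeR). Fits of the iMac and MCC libraries alone, or without a filter on low counts, gave it an adjusted p of 0.0114 and 0.0389 by edgeR, and over all 14 alternatives its log2 fold change was 1.36 to 1.59.

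For the genes that fell, the iMac level stood below the MCC mean with wide intervals. Log2 fold changes were -4.11 for Pdgfra (95% interval -7.04 to -1.18), -2.71 for Pdgfrb (-4.98 to -0.45) and -1.73 for Fgf2 (-2.90 to -0.56). It was -0.67 for Pdgfa (-2.45 to 1.12), -0.68 for Pdgfc (-1.91 to 0.55) and -1.61 for Fgfr1 (-3.32 to 0.11). The interval of Pdgfra excluded 0 and that of Pdgfa held it, before adjustment for the number of genes. The calls turned on 1 library: without MCC library 2, 8 of the 10 genes were called by edgeR, with Pdgfb higher and Pdgfra, Pdgfrb, Fgfr1, Fgfr2, Fgf2, Fgf7 and Fgf10 lower in iMac. Without MCC library 1 the sign turned for Pdgfa, at 0.53, Fgfr2, at 3.79, Fgf7, at 0.44, and Fgf10, at 1.35, with no gene of the 10 called.

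The MCC libraries stood apart from each other across these genes. All 10 were higher in MCC library 1 than in MCC library 2, though Pdgfb only at 28.2 against 27.3 CPM, and the median ratio over the genes with counts in both was 3.82. Relative to the MEF mean, the 9 genes other than Pdgfb had a median of 8.83% in MCC library 1 and 1.59% in MCC library 2, with 1.56% in iMac library 1 and 0.958% in iMac library 2. Fibroblast markers moved with them. All 10 were higher in MCC library 1, with a median ratio of 9.91, and their median level relative to MEF was 4.77% in MCC library 1, 0.465% in MCC library 2, 0.108% in iMac library 1 and 0.0538% in iMac library 2. Smooth muscle and pericyte markers, of which 8 of 9 were higher in MCC library 1, summed to 369.5 CPM there and 71.5 CPM in MCC library 2, with 4.12 to 8.80 CPM in iMac and 1240 to 6830 CPM in MEF. The part of remaining fibroblasts or pericytes in the MCC levels of the 10 genes was not tested.

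**Figure D4:**
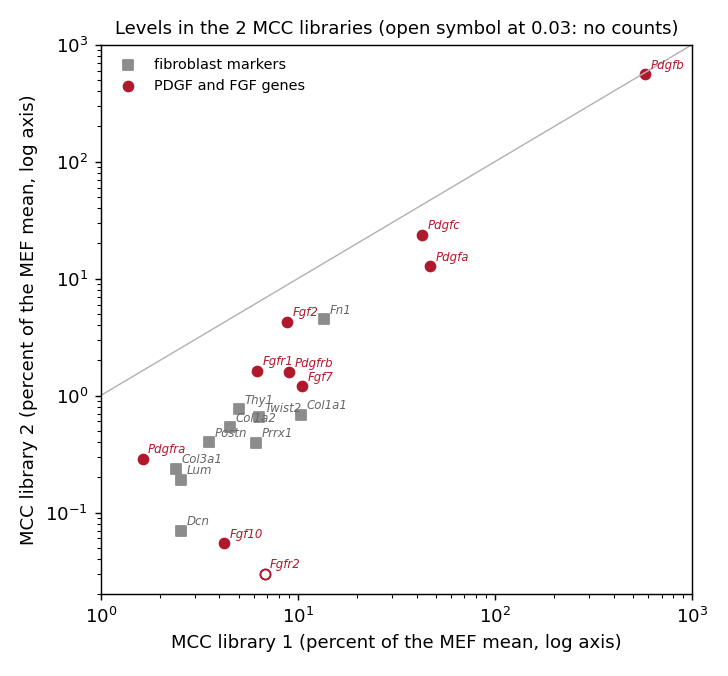
Level in MCC library 2 against MCC library 1, each as a percent of the MEF mean (log axes), for the 10 genes (red circles) and 10 fibroblast markers (grey squares); the line marks equal levels and the open symbol stands for no counts. All 20 points lie below the line, Pdgfb just under it, with the fibroblast markers between 2.40% and 13.6% in MCC library 1 and between 0.0700% and 4.50% in MCC library 2.

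Levels of different genes can be set in order only per length of exon. In iMac the highest of the 10 was Pdgfb at 19.1 ± 1.48 CPM per kb, followed by Pdgfc at 3.05 ± 0.813 and Pdgfa at 3.03 ± 1.58, which overlapped each other. Next came Fgfr1 at 0.589 ± 0.176, Pdgfrb at 0.392 ± 0.0244, Fgf7 at 0.194 ± 0.116 and Fgf2 at 0.0598 ± 0.0161 CPM per kb, and then Fgf10, Pdgfra and Fgfr2, which overlapped. In MCC Pdgfb had the highest mean, at 6.67 ± 0.158 CPM per kb, but Pdgfa ran from 2.06 in MCC library 2 to 7.55 in MCC library 1, above the 6.78 of Pdgfb there. From Pdgfc, at 4.89 ± 1.97, down to Pdgfra, at 0.186 ± 0.184, every neighbour in the order overlapped the next. In MEF the order began with Pdgfrb at 48.6 ± 23.2 and Fgfr1 at 45.6 ± 14.1 CPM per kb, which overlapped, and ended with Pdgfb at 1.17 ± 0.196. Pdgfb thus stood first in both iMac libraries and in MCC library 2, behind Pdgfa in MCC library 1, and last in both MEF libraries.

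Heparan sulfate, the sugar chain that FGF ligands need, is made and carried by 20 listed genes. Of these, 16 fell, 1 rose and 3 were not called in iMac, and 15 fell, 1 rose and 4 were not called in MCC. Beside this, 32.4% of all genes were called lower and 25.1% higher in iMac, and 29.6% and 23.4% in MCC. The median log2 fold change of the list was -2.24 in iMac and -2.01 in MCC. With 1 library left out, 8 to 16 fell in iMac (8 without either iMac library) and 10 to 17 in MCC (10 without either MEF or either iMac library). Gpc3, a glypican, had no counts in iMac, 86 and 12 counts in MCC and 8537 and 8024 counts in MEF. Against the floor it was lower in iMac by at least 4860-fold. In MCC its log2 fold change was -7.41 ± 0.98 (adjusted p = 0.0071, edgeR), and it was -9.39 and -6.49 with MCC library 1 and MCC library 2 left out. Hspg2, or perlecan, was at 3.37 and 4.40 CPM in iMac, 185 and 14.7 CPM in MCC and 2867 and 1963 CPM in MEF. It had log2 fold changes of -9.28 ± 1.51 in iMac and -4.599 ± 1.22 in MCC (adjusted p = 0.00614 and 0.0283, edgeR); the iMac call was lost without either iMac library and the MCC call without either MEF or either iMac library (highest adjusted p = 0.0554 and 0.0823, edgeR). The 1 rise was Ndst2, a sulfotransferase known for heparin synthesis in mast cells, at 108 ± 11.9 CPM in iMac, 84.6 ± 6.13 CPM in MCC and 45.1 ± 2.94 CPM in MEF. The rise on the log2 scale was 1.26 ± 0.12 in iMac and 0.91 ± 0.12 in MCC (adjusted p = 0.00155 and 0.0044, edgeR), called in every fit that left out a library.

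Inside the cell, 24 listed signalling genes link the receptors to Ras, ERK, PI3 kinase and phospholipase C. In iMac 7 rose and 9 fell, and in MCC 5 rose and 8 fell, with medians of -0.21 and -0.28. These counts are near the shares of all genes, 25.1% higher and 32.4% lower in iMac and 23.4% and 29.6% in MCC, and are no result about the list. Leaving out 1 library gave 5 to 7 rises and 6 to 10 falls in iMac (6 falls without either iMac library), and 3 to 6 rises and 5 to 8 falls in MCC (3 rises without either iMac library, 5 falls without MCC library 2). Plcg2, the phospholipase C gamma of blood cells, was at 199.3 ± 0.305 CPM in iMac, 212 ± 14.8 CPM in MCC and 7.51 ± 0.270 CPM in MEF. Its paralog Plcg1, which acts below PDGF and FGF receptors, averaged 51.1 ± 0.351 CPM in iMac, 44.6 ± 5.95 CPM in MCC and 123 ± 5.56 CPM in MEF. Plcg2 rose by 4.73 ± 0.11 in iMac and by 4.82 ± 0.11 in MCC (adjusted p = 5.24e-05 and 6.08e-05, edgeR), and Plcg1 fell by 1.26 ± 0.12 and by 1.46 ± 0.12 (adjusted p = 0.00146 and 0.00129, edgeR). Grb2, the adaptor that brings Sos to the receptors, rose by 1.57 ± 0.10 in iMac and by 1.11 ± 0.10 in MCC on the log2 scale (adjusted p = 0.000501 and 0.00152, edgeR). Src, a kinase that PDGF receptors bind, fell by 2.70 ± 0.35 in iMac and by 2.53 ± 0.35 in MCC (adjusted p = 0.00343 and 0.00484, edgeR). The calls of Plcg2, Plcg1, Grb2 and Src held in every fit that left out a library.

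Receptor signalling is known to induce a set of feedback inhibitors and ERK targets. Of 22 tested, 18 fell and 1 rose in iMac, and 16 fell and 1 rose in MCC. By comparison, 32.4% of all genes were called lower and 25.1% higher in iMac, and 29.6% and 23.4% in MCC. The median log2 fold change of the 22 was -2.49 in iMac and -2.25 in MCC. Leaving out 1 library gave 9 to 18 falls in iMac (9 without either iMac library) and 10 to 16 in MCC (10 without MEF library 2 or either iMac library). Spry4, an inhibitor of receptor tyrosine kinase signalling, was at 0.119 and 0.0603 CPM in iMac, 4.13 and 0.0268 CPM in MCC, and 66.4 and 136 CPM in MEF. Its log2 fold change of -10.08 ± 2.09 in iMac and of -5.60 ± 1.56 in MCC (adjusted p = 0.0122 and 0.0328, edgeR) lost the call in iMac without either iMac library, and in MCC without either MEF or either iMac library (highest adjusted p = 0.093 and 0.119, edgeR). Etv4, a transcription factor induced by FGF, was at 0.570 ± 0.0810 CPM in iMac, 1.42 ± 0.904 CPM in MCC and 54.2 ± 28.0 CPM in MEF. It fell by 6.56 ± 0.71 in iMac and by 5.26 ± 0.65 in MCC on the log2 scale (adjusted p = 0.00201 and 0.00352, edgeR). Lrig1, a transmembrane inhibitor of receptor kinases, fell by 6.72 ± 0.76 in iMac and by 5.16 ± 0.69 in MCC (adjusted p = 0.00226 and 0.0044, edgeR). The 1 rise was Cbl, a ubiquitin ligase that takes down receptor kinases, at 304 ± 13.9 CPM in iMac, 210.2 ± 8.77 CPM in MCC and 118 ± 1.03 CPM in MEF. On the log2 scale it rose by 1.37 ± 0.09 in iMac and 0.83 ± 0.09 in MCC (adjusted p = 0.000543 and 0.00231, edgeR). The calls of Etv4, Lrig1 and Cbl held in every fit that left out a library; in MCC, Etv4 ranged from -6.11 to -4.52 and Lrig1 from -6.40 to -4.38.

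Egr1, an immediate early gene of the same list, was at 113 and 131.5 CPM in iMac, 405 and 355 CPM in MCC, and 239 and 375 CPM in MEF. The MCC and MEF libraries overlapped, and iMac lay below both. Its log2 fold change was -1.33 ± 0.24 in iMac (adjusted p = 0.00824, edgeR), a call lost without either iMac library (highest adjusted p = 0.0652, edgeR), and 0.31 in MCC (95% interval -0.29 to 0.91, adjusted p = 0.315, edgeR).

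**Figure D5:**
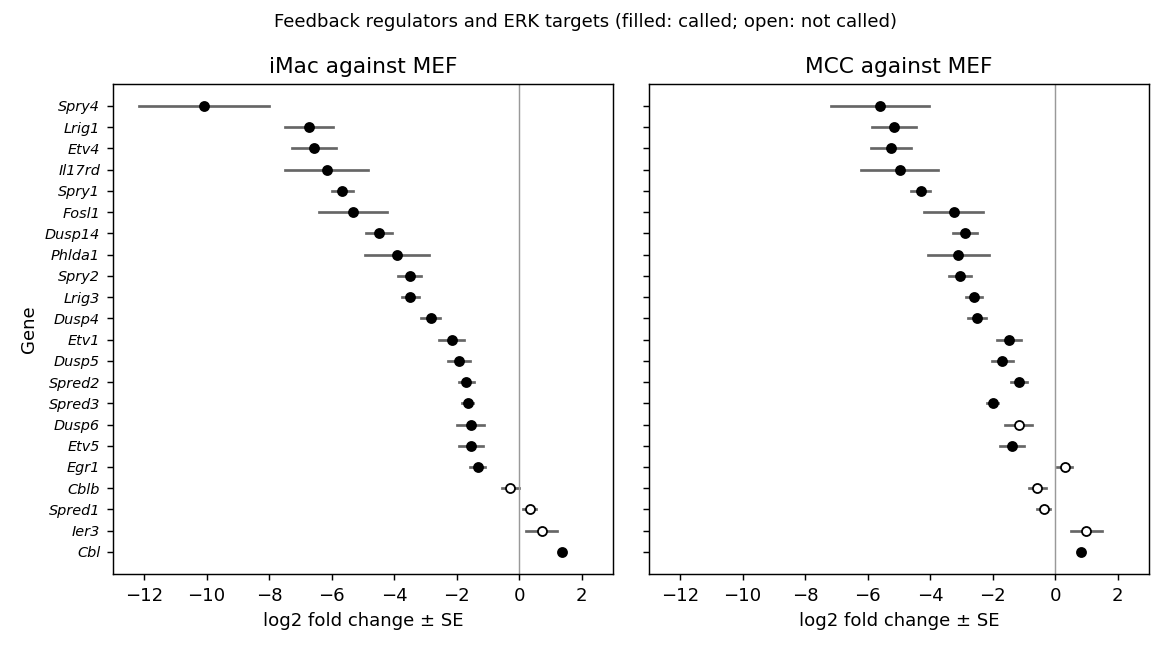
Log2 fold change ± SE of 22 feedback regulators and ERK targets in iMac against MEF and in MCC against MEF; filled points were called by edgeR and open points were not. Spry4, Lrig1 and Etv4 lie farthest left in both panels and Cbl is the 1 filled point right of 0.

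The genes with the profile most like a receptor or Pdgfb over the 6 libraries were found by the root-mean-square difference in log2 (CPM + 0.5) around each gene's own mean, among 12012 candidates. The points share their libraries and scaling, so the measure is a description. Nearest to Pdgfra were Plagl1, at a difference of 0.239, Gpc3, and Scrn1 at 0.304. Nearest to Pdgfrb were Pdzrn3 at 0.143, Synpo at 0.149 and Lmo7 at 0.186, and nearest to Fgfr1 were Shroom2 at 0.209, Tmod2 at 0.215 and Lrig1 at 0.231. Nearest to Pdgfb were Abca1, a cholesterol exporter, at 0.120, Lyz1 at 0.164 and Plin2, a lipid droplet protein, at 0.171. Abca1 averaged 1846 CPM in iMac, 706 CPM in MCC and 148 CPM in MEF, and Plin2 2197 CPM in iMac, 945 CPM in MCC and 151 CPM in MEF. Lyz1 is nearly identical to Lyz2, and the counting may split reads between them.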

How the data were processed

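RNA of 6 libraries, 2 each of iMac, MCC and MEF, was measured as counts per gene. Per the labels' protocols, total RNA was extracted with Trizol and libraries were made with a VAHTS mRNA kit. The authors made the deposited counts with STAR on mm10 and featureCounts, per the submitters' processing notes; the sources used here give no version, annotation, strand setting or treatment of reads with several matches. Counts were used as deposited. The test was that of edgeR 4.0.16, run in R 4.3.3 (filterByExpr, TMM, two-sided quasi-likelihood test, group as the only term, 3 residual degrees of freedom), and p-values were adjusted by Benjamini-Hochberg over the 18613 genes left after 11832 were removed. The threshold was 0.05. Standard errors were derived from the F statistic, and fold changes of genes at 0 are bounds against 3 counts over a group. CPM use TMM-scaled totals, and CPM per kb divide by the exonic union. Coordinates and exonic lengths are from GENCODE mouse release 21 on GRCm38, the assembly of mm10, and promoter windows are from RefSeq on GRCm38.p6. Alternatives were other scalings, filters and tests (DESeq2 1.42.0, limma 3.58.1), fits of the groups compared alone, a replicate block and each library left out in turn. The code was tested on simulated data. All 10 members were named. Of each other list, genes were named from the 3 largest rises, the 3 largest falls and the highest mean CPM. Not every gene so picked is reported, and Fgf1, Fgfrl1, Plau and Cspg4 were named outside that rule. The members and lists were chosen with earlier results of these data known.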

Additional observations from a re-analysis of the deposited data

How the results depend on the processing

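Scaling, filter and test left the directions of the 10 genes against MEF as given, and Pdgfb, Pdgfra, Fgfr1 and Fgf2 were called in both comparisons in all 14 alternatives. In iMac against MEF, leaving out 1 library gave 5 to 10 of the 10 genes called and 5173 to 10695 genes in all, beside 10 and 10717. In MCC against MEF, a fit of only the groups compared called 5, and leaving out 1 library 4 to 10, beside 8. In iMac against MCC, the counts of the 10 genes and of all genes called were 1 and 89 with no filter on low counts, 4 and 2734 with DESeq2, 1 and 146 with limma-voom and 1 and 1364 with only the groups compared, beside 0 and 4. Leaving out 1 library gave 0 to 8 of the 10 genes and 0 to 1202 genes. Without MCC replicate 1 the sign turned in that comparison for Pdgfa, Fgfr2, Fgf7 and Fgf10. Fgfr2 and Fgf10 could not be fitted there with only the groups compared, since the filter removed them. Over the fits that left out 1 library, the log2 fold changes there ran from -1.45 to 0.53 for Pdgfa, -9.25 to 3.79 for Fgfr2, -2.78 to 0.44 for Fgf7 and -8.30 to 1.35 for Fgf10. The cause of these changes was not tested.

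Deviations of same-numbered libraries correlated at -0.00194 for iMac and MCC, -0.0106 for iMac and MEF and 0.1 for MCC and MEF over 18613 genes. These values cannot show whether the libraries were prepared in pairs, which the labels do not state. With a replicate block, 10 of the 10 genes were called in iMac against MEF, 10 in MCC against MEF and 0 in iMac against MCC, with 9908, 9022 and 0 genes in all. A fit that leaves out a library assumes that the remaining one varies like the other groups. Scaling by library totals alone moved the median log2 fold change of all genes in iMac against MCC by -0.139, and no other scaling moved a median by over 0.1. The share of Pdgfb without division by exonic length was chosen after seeing the data.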

Other observations

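Cspg4, a proteoglycan of pericytes and oligodendrocyte precursors that binds PDGF and FGF ligands, differed in order from the other pericyte genes within MCC. It had 41 and 150 counts in iMac, 1121 and 1984 counts in MCC and 6453 and 3561 counts in MEF. Of 9 smooth muscle and pericyte markers, 8 were higher in MCC library 1, and Cspg4 was the exception, at 29.1 CPM in MCC library 1 and 53.1 CPM in MCC library 2. It was singled out after its values were seen. Its log2 fold change was -5.54 ± 0.80 in iMac (adjusted p = 0.0045, edgeR) and -1.70 ± 0.67 in MCC (95% interval -3.40 to 0.01, adjusted p = 0.0834, edgeR), and it was not tested between the MCC libraries, which have no replicates of their own.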
